A study of Homo sapiens with 6 samples.

Results

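Rows of long non-coding transcripts made up 443 of the 3437 rows in the table of short RNA reads over annotated transcripts. They were chosen by name: the rows carry a RefSeq non-coding (NR_) identifier, and rows of snoRNA, snRNA, microRNA, other small non-coding, RNase P and RNase MRP genes and of scaRNA genes were left out. By RefSeq biotype, 151 rows belonged to lncRNAs, 73 to transcribed pseudogenes and 193 to non-coding transcripts of protein-coding genes, while 26 had none of these 3 classes, 25 of them because the identifier was not matched. Without a biotype these could not be held to the rule on small RNA genes, so some may be small RNA records. The 443 rows stood for 348 positions and 289 named genes, and all lay on the minus strand of the genome. Short RNA was sequenced from 3 Caco2 WT and 3 PIWIL2 KO samples. Caco2 is a long-used human cell line of colon epithelium, grown to confluency in both groups, and PIWIL2 KO is the same line edited with CRISPR/Cas9 in PIWIL2. The knockout is a single surviving clone in which an unmodified allele was also found. The table gives 1 value per genotype and strand and names no sample, and these values are taken here as pooled. The paper describes its sequencing results as averaged over 3 biological replicates, so how the samples were combined is uncertain. There is thus no replicate error, no test between genotypes was run and every comparison is between 2 combined libraries.

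PIWIL2 belongs to the PIWI branch of the Argonaute proteins, which bind small RNAs of the germline, the piRNAs, and silence transposons. A lncRNA is a long transcript without a coding frame, a transcribed pseudogene is an RNA copy of a degenerate gene, and many coding genes also make spliced RNAs that are not translated. Short reads over such transcripts can be fragments of the long RNA, small RNAs made inside it or, on the opposite strand, RNA from a neighbour. Values are in CPM, counts scaled to the uniquely mapped reads of the library. From the steps between low values, 1 read was worth 0.0776 CPM in Caco2 WT against 0.0738 CPM in PIWIL2 KO. If the columns are pooled counts, the libraries held about 12900000 and 13600000 uniquely mapped reads. A value of 0 cannot exclude 3 reads, which are 0.233 and 0.221 CPM. All intervals below are 95% counting intervals from exact formulas, on read numbers obtained from these steps. Each value or sum was rounded to whole reads, also where it held values below 1 read, so the intervals are approximate. These intervals cover counting error only, since the reads were PCR copies counted without molecular identifiers and are not independent.

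The rows are labelled as 3′ UTRs, and their sequence showed that many are not 3′ ends. Each row name holds an index, which starts at 0 and rises with the distance of the exon from the 3′ end, and 163 of the 443 rows (36.8%) had an index above 0. A 3′ end usually carries a poly(A) signal shortly before cleavage, whereas an exon that is spliced onward is followed by the donor bases GT. The sequences below show both kinds of edge in rows discussed later, and 2 leading rows with index 0 that hold neither signal nor donor. They were read from GRCh37 (hg19) on the minus strand, 5′ to 3′. For rows with index 0 they are the final 30 bases of the row, with AATAAA or ATTAAA in capitals where it occurred. For the others they are the final 20 bases of the exon and the 10 bases that follow, with the donor GT in capitals.
NORAD, index 0, chr20:34633540-34633569: AATAAAggttattttaaaagcctgtattaa
SNHG10, index 0, chr14:95999249-95999278: agagaatatATTAAActctttccaaaataa
ACTG1, index 0, chr17:79476997-79477026: aaggaaaAATAAAagtgctgccgtaaccaa
KRT8, index 0, chr12:53290971-53291000: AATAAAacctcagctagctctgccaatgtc
SNHG7, index 0, chr9:139619684-139619713: cctggacaacagagtgggactctgtctcaa
HEIH, index 0, chr5:180256954-180256983: ttgaagtaaagtgggattttccaaccttga
ACTG1, index 6, chr17:79479750-79479779: gccgtcgcgtttctctgccgGTgagcgccc
KRT8, index 8, chr12:53343230-53343259: aggctcctcactctgtccagGTaagaggcc
SNHG5, index 5, chr6:86388402-86388431: agcgtctgggcgggtggtagGTgagtgggt
IARS1, index 30, chr9:95050063-95050092: gatattctgctgagtggaagGTatgttggg
HNRNPUL2-BSCL2, chr11:62458537-62458566: gatctctgctcatcagccagGTaaaggtgt
ZNF767P, chr7:149318127-149318156: cgagatgctggtctctttggGTaaggcctg
The first 4 carried a poly(A) signal, SNHG7 and HEIH did not hold these letters in the stretch shown, and the other 6 ended at a splice donor, and ACTG1 and KRT8 supplied both kinds from the same transcript.

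The same split held over all rows. Searched on the transcript's strand only, AATAAA or ATTAAA occurred in the last 40 bases of 182 of the 280 rows with index 0 (65.0%) and of 1 of the 163 rows with index above 0 (0.613%). The bases GT followed directly in 18 rows with index 0 (6.43%) and in 162 rows with index above 0 (99.4%). For the 1345 minus-strand rows of coding (NM_) transcripts, the signal was in 79.8% and GT in 7.73%. Among rows with index 0, the signal was in 84.8% of the rows of coding genes, 54.4% of lncRNA rows and 43.5% of pseudogene rows. Of the rows with index above 0, 159 began exactly at an exon edge of the GENCODE annotation lifted to this build, and in 144 of these the index matched the order of the exon counted from the 3′ end of an annotated transcript, while for 15 it did not. By this match 90 rows were the first exon of an annotated transcript, which need not be the row's own. The rows of the same SRSF2 transcript with index 2 and 3, for example, were both called first exons. The first and internal exons below rest on these calls. How the exons listed for a transcript were chosen is not given in the sources used here.

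**Figure D1:**
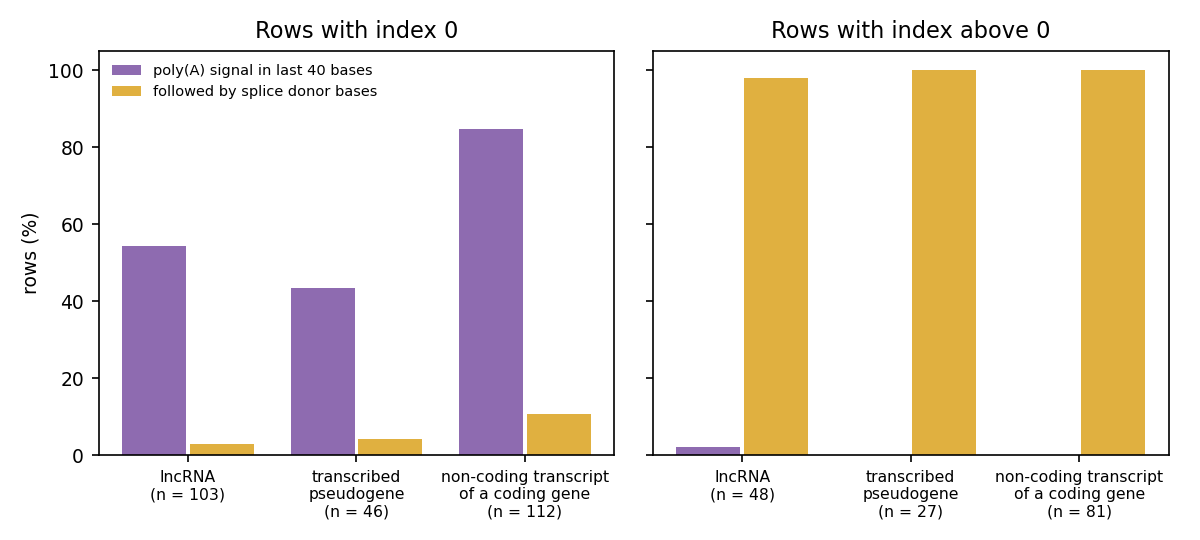
Share of rows, in percent, with a poly(A) signal in their last 40 bases (purple) and followed directly by splice donor bases (yellow), for the 3 classes, at index 0 (left) and above 0 (right). The signal reaches 84.8% at index 0 in rows of coding genes, and the donor bases reach 97.9% to 100% at index above 0.

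Signal was thin throughout. Of the 443 rows, 200 were 0 in all 4 columns and 243 had a value, and 11 reached a mean of 0.3 CPM on the sense strand and 1 on the antisense strand. A sense value was present in Caco2 WT in 45 lncRNA rows (29.8%), 32 pseudogene rows (43.8%) and 102 rows of coding genes (52.8%), and in PIWIL2 KO in 41, 33 and 96 rows. Many values were less than the worth of 1 read, and the classes differed in this. In Caco2 WT 23 of the 32 pseudogene values, 63 of the 102 values of coding genes and 15 of the 45 lncRNA values were below 1 read. At least 3 reads were reached in Caco2 WT by 8 lncRNA rows, 2 pseudogene rows and 8 rows of coding genes. A further limit is that 101 rows, 93 of them of coding genes, had the start and values of a row of a coding transcript, so their reads cannot be assigned to the non-coding RNA.

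Per length, the listed exons upstream of the 3′ end had higher sense values than the last exons. This describes the listed exons only: not every exon of a transcript is in the table (KRT8 has those with index 0, 2, 3, 6 and 8), a sense value was present in 73.6% of all rows with index above 0 and in 37.5% of those with index 0, and whether exons were listed because they had reads was not tested. Lengths were taken only where the start matched an annotated exon edge exactly. The end was then the most common annotated end for that start, so lengths are approximate. Over these positions, 108 last exons (355 kb in all, median 2040 bases) held 0.00651 CPM per kb in Caco2 WT (0.00442 to 0.00936). In PIWIL2 KO they held 0.00797 (0.00559 to 0.0108). These last exons are 108 of 214 and leave out 3.35 CPM of the 5.66 sense CPM at last exons in Caco2 WT, SNHG7, TIMM23 and SNHG10 among them. With starts accepted within 5 bases of an annotated edge, 144 last exons held 0.00903 and 0.0112 CPM per kb. The 45 internal exons held 0.203 CPM per kb in Caco2 WT (0.144 to 0.280) and 0.178 in PIWIL2 KO (0.124 to 0.249). The 72 first exons, with a median of 154.5 bases, held 0.270 (0.210 to 0.344) and 0.223 (0.170 to 0.289). The shortest of them, from DHPS, was only 4 bases long by this match, with 0.16 and 0.07 CPM. The intervals of last exons did not overlap those of the other positions in either genotype, in either set of last exons. A sense value was found at 35.2% of these last, 57.8% of internal and 79.2% of first exons, although the last exons were the longest. Reads that reach over an edge weigh more in short exons, and with 50 bases, the sequenced read length, added to every exon, the first exons still held 0.227 CPM per kb in Caco2 WT and the last exons 0.00641.

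The order of positions was the same for lncRNAs and for non-coding transcripts of coding genes when last exons were set against first exons. First exons of coding genes held 0.568 CPM per kb in Caco2 WT (0.403 to 0.775) and 0.581 in PIWIL2 KO (0.419 to 0.785), against 0.00701 and 0.00785 in their last exons. First exons of lncRNAs held 0.226 (0.135 to 0.342) and 0.137 (0.0730 to 0.234), against 0.00629 (0.00333 to 0.0102) and 0.00977 (0.00637 to 0.0148) in their last exons. KCNQ1OT1, a single exon of 91667 bases with 0.08 and 0 CPM, made up much of the length of the lncRNA last exons, which held 0.0120 (0.00621 to 0.0199) and 0.0201 (0.0131 to 0.0305) CPM per kb without it. In each genotype the listed first exons of coding genes lay above those of lncRNAs with intervals that did not overlap. A value was present at 97.0% of these first exons of coding genes and at 70.4% of those of lncRNAs. Whether exons were listed because they had reads was not tested, so this order describes the listed exons and not the classes. For pseudogenes, 9 first exons gave 0.0708 CPM per kb in Caco2 WT (0.0136 to 0.193), whose interval overlapped that of their 13 last exons (7.09e-05 to 0.0156).

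**Figure D2:**
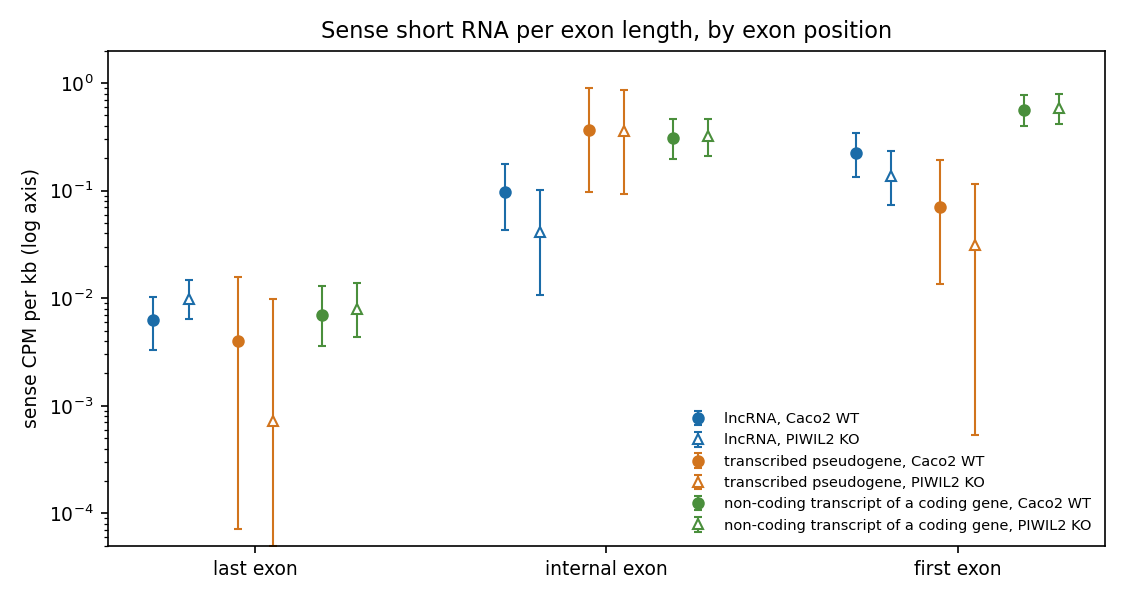
Sense CPM per kb (log axis) in last, internal and first exons for the 3 classes, with Caco2 WT as filled circles, PIWIL2 KO as open triangles and 95% counting intervals as bars. Last exons lie near 0.00629 to 0.00977 for lncRNAs and first exons of coding genes near 0.568 to 0.581, and the pseudogene intervals are the widest.

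On the sense strand the sums of the 3 classes differed between genotypes by less than their counting error. lncRNA rows summed to 5.42 CPM in Caco2 WT against 6.20 CPM in PIWIL2 KO, with a log2 ratio of 0.19 (-0.28 to 0.67). Pseudogene rows summed to 1.98 and 1.58 CPM, a log2 ratio of -0.33 (-1.28 to 0.51). Rows of coding genes summed to 8.12 and 7.46 CPM, a log2 ratio of -0.12 (-0.54 to 0.28). These sums count every row, and rows of a gene that share an exon can repeat the same reads. With such repeats counted once, the log2 ratios were 0.23 (-0.26 to 0.72) for lncRNAs and -0.37 (-1.23 to 0.57) for pseudogenes. For coding genes the ratio was then -0.03 (-0.49 to 0.41). The difference in log2 ratio was 0.32 between lncRNAs and coding genes (-0.32 to 0.95), 0.52 between lncRNAs and pseudogenes (-0.45 to 1.60) and -0.20 between pseudogenes and coding genes (-1.25 to 0.73), and all 3 intervals held 0. In RNA of whole cultures, fewer cells with a transcript and less of it per cell cannot be told apart. The sign of the lncRNA ratio was not stable: it was -0.23 when the sums over all rows of the table were set equal, a shift of -0.43 on the log2 scale, and -0.06 without SNHG10.

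Antisense reads were fewer, and here the classes stood further apart. lncRNA rows summed to 0.80 CPM in Caco2 WT against 1.10 CPM in PIWIL2 KO, with a log2 ratio of 0.46 (-0.74 to 1.83). Rows of coding genes summed to 1.39 and 0.52 CPM, a log2 ratio of -1.42 (-2.94 to -0.11). Pseudogene rows summed to 0.12 and 0.03 CPM, below the worth of 3 reads in both. The difference in log2 ratio between lncRNAs and coding genes was 1.88, with an interval that barely excluded 0 (0.036 to 3.91). It rested on 10 and 15 antisense reads in lncRNA rows and 18 and 7 in rows of coding genes, with every row counted. The interval reached 0 when the row with the largest difference was left out of each class (-0.12 to 3.98). Rows of a gene that share an exon can repeat the same reads. With such repeats counted once, the reads were 10 and 14 against 16 and 5, and the difference was 2.06 (0.080 to 4.36). In Caco2 WT antisense reads were 12.9% of the lncRNA sum (6.16% to 21.8%) and 14.6% of that of coding genes (8.91% to 22.1%). In PIWIL2 KO the shares were 15.1% (8.74% to 23.8%) and 6.52% (2.65% to 12.9%), so the intervals of the classes overlapped in both genotypes.

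**Figure D3:**
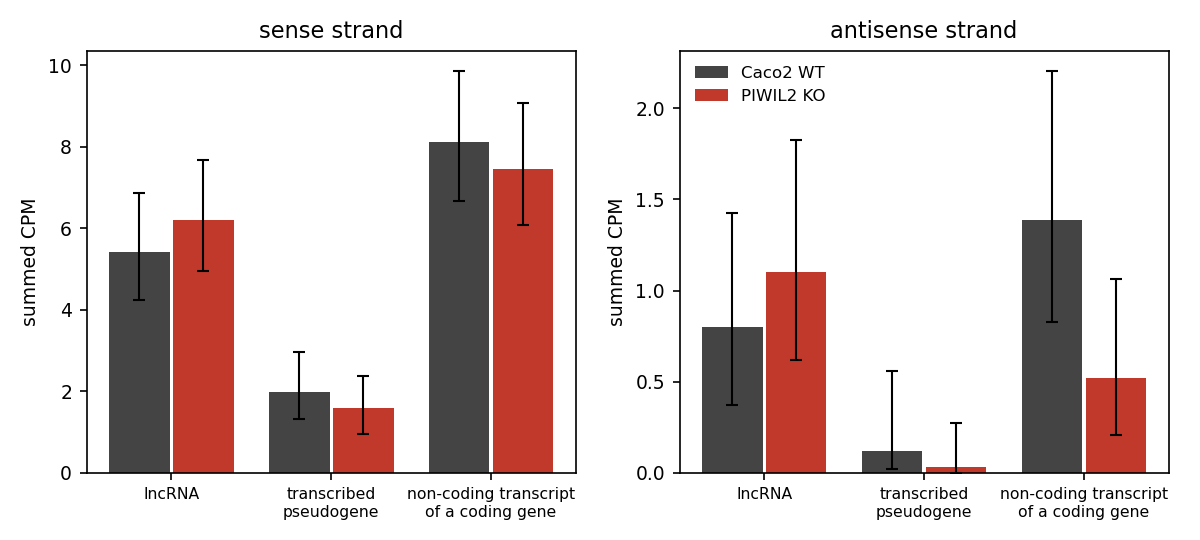
Summed CPM over all rows of each class on the sense (left) and antisense strand (right), with Caco2 WT in grey, PIWIL2 KO in red and 95% counting intervals as bars. The intervals of the genotypes overlap in every class on both strands, and rows of coding genes on the antisense strand go from 1.39 to 0.52 CPM.

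Within lncRNAs, rows with index 0 and rows with index above 0 went in opposite directions, a split examined after the values were seen. The 103 rows with index 0 summed to 3.03 CPM in Caco2 WT against 4.91 CPM in PIWIL2 KO, with a log2 ratio of 0.70 (0.12 to 1.32). The 48 rows with index above 0 summed to 2.39 and 1.29 CPM, a log2 ratio of -0.89 (-1.88 to -0.04). The difference was 1.59 on the log2 scale (0.54 to 2.77). It rested in part on SNHG10 and NORAD, without which it was 1.08 (-0.07 to 2.34). Without SNHG10 the rows with index 0 gave 0.42 (-0.24 to 1.10), and without APTR, which had the largest change among the others, the rows with index above 0 gave -0.69 (-1.71 to 0.19). The same difference was 0.77 for pseudogenes (-1.03 to 2.77) and -0.71 for coding genes (-1.76 to 0.30), both with intervals that held 0.

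Of the 11 rows that averaged 0.3 CPM or more on the sense strand, 2 were at least 2-fold higher in PIWIL2 KO after 0.1 CPM was added to both values, and 0 were at least 2-fold lower. Over all 161 such rows of the table, 27.3% were higher and 8.7% lower by this measure. Both higher rows were among the 6 lncRNA rows, whose median log2 ratio was 0.58 against 0.48 over the 161 rows, and neither of the 2 rows of coding genes nor the pseudogene row passed 2-fold. With so few rows, these counts describe named transcripts and not a class.

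SNHG10, a host transcript that carries a small Cajal body RNA, had 0.39 CPM in Caco2 WT against 1.37 CPM in PIWIL2 KO, with a ratio of 3.51 (1.31 to 12.4). The row of SCARNA13, the small Cajal body RNA at this locus, which guides modification of spliceosomal RNA, had exactly the same values. The reads of the host and of SCARNA13 therefore cannot be told apart. SNHG10 was the leading row of the class in PIWIL2 KO, with 22.1% of the lncRNA sense sum.

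NORAD, a cytoplasmic lncRNA that binds PUMILIO proteins, had 0.29 CPM in Caco2 WT against 0.85 CPM in PIWIL2 KO, about 4 and 12 reads. The ratio was 2.93, with an interval that held 1 (0.865 to 12.1). Its exon of 5401 bases (chr20:34633540-34638940) overlapped no annotated small RNA, and per length it had 0.0537 and 0.157 CPM per kb.

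SNHG7, a host of snoRNAs, had 0.50 and 0.63 CPM, and the rows of SNORA17A and SNORA17B inside it summed to 0.27 and 0.52 CPM. The SNHG7 row can include these snoRNA reads, so its values are not those of the host alone. The remaining lncRNA rows that led the class had no ratio beyond counting error. HEIH, first described in liver cancer, had 0.39 CPM in Caco2 WT against 0.59 CPM in PIWIL2 KO (ratio 1.51, 0.439 to 5.92). The read-through transcript BLOC1S5-TXNDC5 had 0.21 and 0.39 CPM, but its row repeated that of a coding transcript. An internal exon of 67 bases of HNRNPUL2-BSCL2 had 0.49 and 0.22 CPM (ratio 0.449, 0.0770 to 2.23). This exon is shared with BSCL2, which encodes the lipid droplet protein seipin, and it appeared again in 2 rows without a class, NR_037948 and NR_037949.

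Of the 37 listed snoRNA host genes, 5 were among the rows and all 5 had a sense value, together 1.55 CPM in Caco2 WT against 2.29 CPM in PIWIL2 KO, with a log2 ratio of 0.56 (-0.30 to 1.45). Without SNHG10 the direction turned, at 1.16 and 0.92 CPM and a log2 ratio of -0.33 (-1.62 to 0.80). Both sums hold the SNHG7 row, which can include snoRNA reads. The other 3 hosts had fewer reads in PIWIL2 KO. SNHG5, an exon of 55 bases that is the first of an annotated transcript (chr6:86388412-86388466), had 0.31 and 0.15 CPM. SNHG12 had 0.23 and 0.07 CPM and SNHG17 0.12 and 0.07 CPM. SNHG5 and SNHG12 ended at a splice donor, none of these 3 rows overlapped a small RNA, and at 4 reads or fewer their genotypes were within counting error. Of 10 listed nuclear or regulatory lncRNAs, NORAD and KCNQ1OT1 were among the rows, and KCNQ1OT1, the antisense transcript of an imprinted domain, had 0.08 and 0 CPM. Of 9 listed microRNA hosts, 2 were present: MIR22HG at 0.02 CPM or less in each of 4 rows that share 1 exon, and MIR210HG at 0. None of 15 lncRNAs studied in colon cancer had a row. All 443 rows lay on the minus strand, so a listed gene without a row is not shown to lack reads. The list of PIWI and small RNA genes had 1 row in the table, AGO4, at 0. The level of the edited gene was therefore not analysed here.

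APTR, a lncRNA linked to regulation of CDKN1A, was named here after its values were seen. On the sense strand it had 0.31 CPM in Caco2 WT and 0 in PIWIL2 KO, about 4 and 0 reads. The interval of the ratio held 1 (0 to 1.44). On the antisense strand it had 0 and 0.07 CPM, the latter about 1 read. lncRNAs whose symbols mark them as antisense, divergent or intronic transcripts supplied 74 rows of 58 genes, of which 29 had a sense value, and summed to 1.18 and 1.29 CPM (log2 ratio 0.13, -0.98 to 1.21). Rows with LINC symbols numbered 39, of which 10 had a sense value, and summed to 0.69 and 0.48 CPM (-0.52, -2.09 to 1.16).

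**Figure D4:**
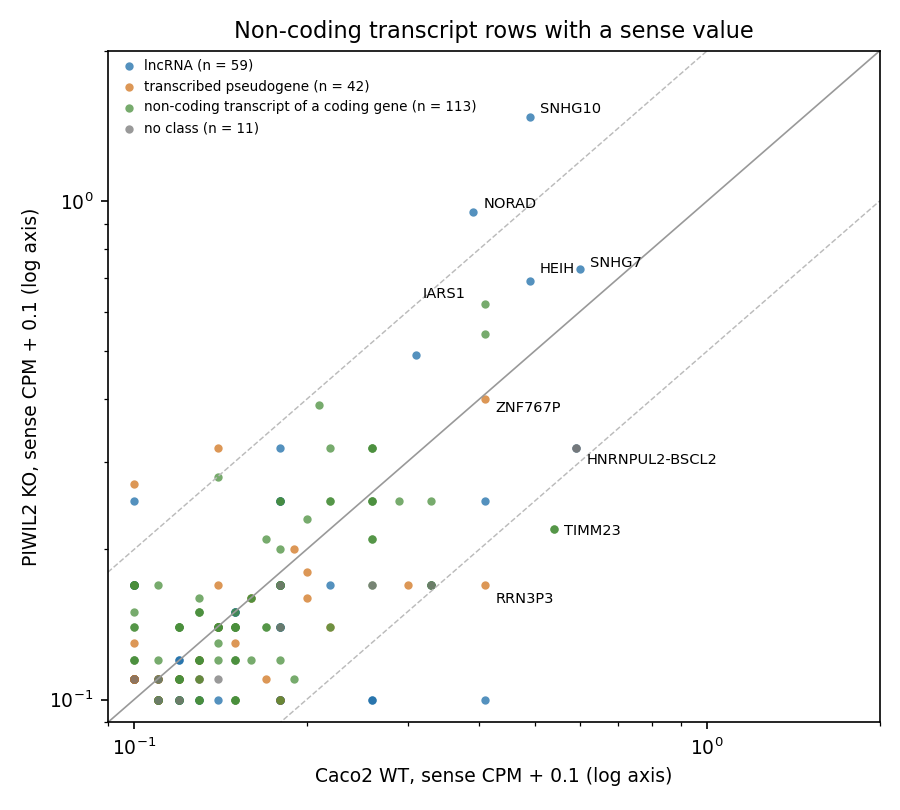
Sense CPM plus 0.1 of each row with a sense value with Caco2 WT on the x axis, PIWIL2 KO on the y axis and both axes logarithmic, coloured by class, with the line of equality and dashed lines at 2-fold. Most rows lie below 0.3 CPM, and SNHG10 and NORAD are the rows above the upper dashed line that averaged 0.3 CPM or more.

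Transcribed pseudogenes gave a single row that averaged 0.3 CPM or more. An internal exon of ZNF767P, a zinc finger pseudogene, had 0.31 CPM in Caco2 WT against 0.30 CPM in PIWIL2 KO (ratio 0.968, 0.177 to 5.11). RRN3P3, a copy of the RNA polymerase I initiation factor RRN3, had 0.31 and 0.07 CPM (0.226, 0.00483 to 2.40). STAG3L2 had 0.20 and 0.07 CPM, PIPSL 0.04 and 0.22 CPM and ANXA2P1, an annexin A2 copy, 0.09 and 0.10 CPM, none of them beyond counting error. Reads of such copies can also match the parent gene, so these values are uncertain.

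Among coding genes, the 5 leading non-coding rows included first, internal and last exons. An internal exon of IARS1, the cytoplasmic isoleucyl-tRNA synthetase, had 0.31 CPM in Caco2 WT against 0.52 CPM in PIWIL2 KO (ratio 1.68, 0.423 to 7.76). The first exon of ACTG1, which encodes gamma-actin, had 0.31 and 0.44 CPM, or 2.63 and 3.73 CPM per kb, while the last exon of the same transcript had 0.01 and 0.07 CPM. TIMM23, a channel of the mitochondrial inner membrane, had 0.44 and 0.12 CPM in a row that repeated that of its coding transcript (ratio 0.273, 0.0313 to 1.77). TMEM50B had 0.23 and 0.15 CPM. None of these ratios lay beyond counting error.

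KRT8, a keratin of simple epithelia and a colon epithelial marker, was present with 5 rows of 1 non-coding transcript. Its last exon had 0.11 CPM in Caco2 WT against 0.29 CPM in PIWIL2 KO, about 1 and 4 reads (ratio interval 0.377 to 187). The exons with index 2, 3 and 6 had 0.04 and 0.03, 0.07 and 0.11, and 0.04 and 0.18 CPM. In all of these exons the genotypes were within counting error. The rows of coding KRT8 transcripts that begin at the same base had 0.03 and 0 CPM. Of 10 colon epithelial markers, only KRT8 and CDH1 had rows in the table, with CDH1 at 0.08 and 0.30 CPM. Of 6 markers of other cell types, only CD68 had rows, at 0 in both genotypes, so the labelled cell type could be checked on those genes alone.

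**Figure D5:**
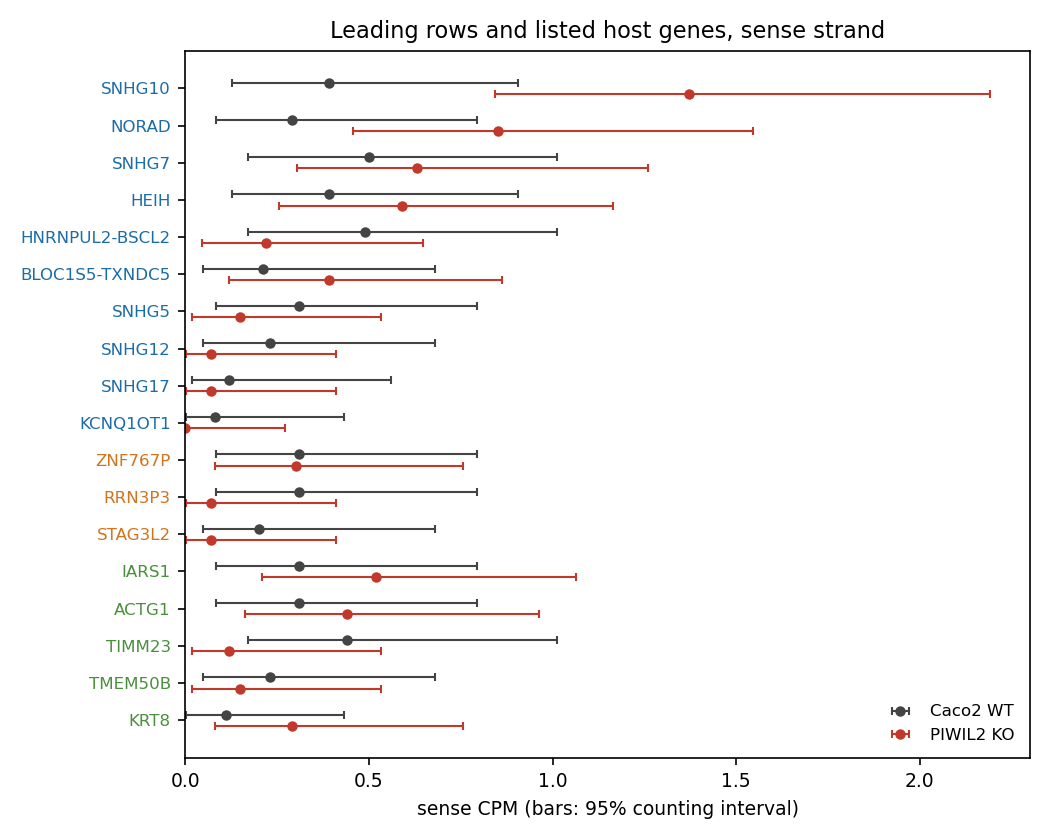
Sense CPM of the leading rows and of listed lncRNAs in Caco2 WT (grey) and PIWIL2 KO (red), with 95% counting intervals as bars and names in blue for lncRNAs, orange for pseudogenes and green for coding genes. SNHG10 has the widest separation, at 0.39 and 1.37 CPM, and the intervals of the genotypes overlap in every row shown.

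Antisense values were found at 38 positions, and 17 of these had no sense value. Of the 38 positions 19 (50%) lay over an exon on the opposite strand, against 39 of 310 positions without antisense reads (12.6%), and 3 reached 3 reads in a genotype. The rows named here show the arrangement. GSN-AS1, opposite exons of the actin-severing gene GSN, had 0.23 antisense CPM in Caco2 WT and 0.22 in PIWIL2 KO and no sense reads. USP3-AS1, opposite the histone deubiquitinase gene USP3, had 0.08 and 0.15 CPM, and SLC9B1, opposite CISD2, had 0.13 and 0.12 CPM. The KRT8 exon with index 8, which lies opposite an exon of its partner KRT18, had 0.19 and 0.02 antisense CPM and no sense reads. SPEN-AS1 had 0.16 and 0.07 CPM and CIB1 0.16 and 0.15 CPM, where no exon was found opposite in the stretch searched. Neither start matched an exon edge exactly, so the end of that stretch is uncertain and an opposite exon could be missed. The same limit applies to other such positions in both shares above.

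The antisense difference within coding genes came mainly from rows with index above 0, a split examined after the values were seen. HUS1, a subunit of the DNA damage checkpoint clamp, had 0.23 antisense CPM in Caco2 WT and 0 in PIWIL2 KO, where the counting interval reaches 0.272 CPM. HNRNPDL, an RNA-binding protein gene, had 0.16 and 0 CPM. The KRT8 exon with index 8 had 0.19 and 0.02 CPM and an SRSF2 exon 0.16 and 0 CPM. Both lie opposite exons, of KRT18 and MFSD11, and whether their reads come from these neighbours was not tested. NUMA1 went the other way, from 0 to 0.07 CPM. Without HUS1 the log2 ratio of the antisense sum of coding genes was -1.16. Over rows with index above 0 the sum went from 1.06 to 0.24 CPM (log2 ratio -2.14, -4.73 to -0.45), and over rows with index 0 from 0.33 to 0.28 CPM.

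The strongest antisense value belonged to a row without a class, whose identifier was not matched, so that it is not known to be a long transcript. NR_106781, which starts at base 567705 of chromosome 1, had 3.03 antisense CPM in Caco2 WT against 0.33 CPM in PIWIL2 KO, about 39 and 4 reads, a ratio of 0.109 (0.0253 to 0.271), and no sense reads. It was the 1 row of 1 tested on this strand that was at least 2-fold lower. Over all 9 antisense rows past the same minimum, 22.2% were lower and 0% higher. The row lies over MTCO1P12, a nuclear copy of a mitochondrial gene. Of the 16-base stretches in the 200 genomic bases from base 567705 upward, 74.1% also occur in the mitochondrial genome. The length of the row itself was not known from an exact start. In a window placed in the same way, only 1 further row, ZDHHC8BP, shared any (0.541%). Reads of mitochondrial RNA and of this copy cannot be told apart here. Over all 443 rows the antisense sum went from 5.50 to 2.07 CPM, a log2 ratio of -1.41 (-2.10 to -0.76), and without this row from 2.47 to 1.74 CPM, a log2 ratio of -0.51 whose interval held 0 (-1.31 to 0.32).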

How the data were processed

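Short RNA libraries (3 of Caco2 WT, 3 of PIWIL2 KO) were read as single reads of 50 bases. The authors trimmed adapters with Cutadapt 1.15 and mapped and counted reads with piPipes against hg19. They deposited 4 columns of CPM, scaled to uniquely mapped reads, 1 for each genotype and strand, which are taken here as pooled. Bowtie2 is also named in the submitters' processing notes, with no version. The members and lists were chosen with earlier results of these data known. Identifiers were matched to RefSeq names (GRCh38.p14, names only). Row starts were compared with GENCODE v44 exons lifted to GRCh37, and edge sequences were read from GRCh37, the same build. The worth of 1 read was the step that made most values from 0.07 to 2 CPM whole multiples within 0.005 CPM (78.3% in Caco2 WT and 77.1% in PIWIL2 KO), so whole reads were not recovered for a count test. Intervals were Garwood for sums, Clopper-Pearson for ratios and shares, and conditional odds ratios for differences (scipy 1.17.1). The step search and intervals were tested on simulated whole, independent reads. These held no values below 1 read, so the simulation cannot show that the intervals hold for such values. Named rows were the 5 with the highest mean per class and strand, the 5 largest changes each way at a mean of at least 0.3 CPM, and listed genes with a value. HUS1, HNRNPDL and others named for antisense values fall under the first part.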

Additional observations from a re-analysis of the deposited data

How the results depend on the processing

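No paired analysis was possible because each genotype has 1 pooled column, and for the same reason no replicate could be left out. Of the alternative values, 128 stayed within the interval of the main value or, for counts, within 1.5 times of it, and 34 did not. The log2 ratio of the lncRNA sense sum was 0.84 over rows that averaged 0.3 CPM or more, and, in settings chosen after seeing the data, 0.70 over rows with index 0 and -0.89 over rows with index above 0. That of coding genes was -0.55 with equal sums over all rows, 0.63 over rows that averaged 0.3 CPM or more and -0.66 at index 0. Last exons held 0.0112 CPM per kb in PIWIL2 KO with starts accepted within 5 bases of an annotated edge, and those of lncRNAs 0.0120 and 0.0201 CPM per kb without KCNQ1OT1 and 0.0106 and 0.0180 with such starts, all chosen after seeing the data. Rows with at least 3 reads, in Caco2 WT and PIWIL2 KO, numbered 8 and 7 for lncRNAs, 2 and 2 for pseudogenes and 8 and 7 for coding genes on the sense strand, and 1 and 1, 0 and 0, and 1 and 0 on the antisense strand. Counted once per gene, coding genes with a sense value numbered 60 and 57. The 2 lncRNA rows that were 2-fold higher became 0 with a pseudocount of 1 CPM and 0 with a minimum mean of 1 CPM. The 0 lower lncRNA rows became 1 with a pseudocount of 0.01 CPM and 3 with no minimum. With no minimum, pseudogenes had 2 higher and 1 lower, and coding genes 1 higher and 2 lower on the sense strand and 4 lower on the antisense strand. The cause of these differences was not tested, beyond the smaller number of rows some settings keep. The antisense difference between lncRNAs and coding genes had an interval of -0.27 to 3.67 without rows that overlap a small RNA. Depth limits rows at 1 to 4 reads, where differences between genotypes were not detectable.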
